A study of Mus musculus with 4 samples.

Results

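Ion channel genes set the excitability of a cell, and 119 of the 21822 gene units counted in these libraries belonged to the families described here. They were chosen by symbol alone: all genes named Kcn (potassium channels and their accessory proteins), sodium channel subunits (Scn followed by a number and a or b), calcium channel subunits (Cacna, Cacnb and Cacng) and the HCN genes. This rule matched 139 units, of which 20 had fewer than 10 counts over the 4 libraries and were left out, 6 of them with 0 counts. Of the 119 kept, 80 were Kcn genes, 24 calcium channel genes, 11 sodium channel genes and 4 HCN genes.

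The libraries came from mouse iMN-ESCs, embryonic stem cells of C57BL/6 background in which doxycycline (Dox) induces a fusion of the LIM-homeodomain factors Isl1 and Lhx3. Cells of both groups were grown as aggregates in medium with LIF for 2 days and in 0.5 µM all-trans retinoic acid for 2 days. The last 2 to 3 days were spent in retinoic acid with 2 µg/mL Dox (2 libraries) or without Dox (2 libraries, the controls). Both groups carry the transgene, and no group without the transgene received Dox, so what the fusion did and what Dox did cannot be told apart. The promoter that drives the fusion, and whether the line is 1 clone, are not given in the labels.

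Voltage-gated channels open when the membrane is depolarised. Sodium channels carry the upstroke of the action potential, potassium channels end it and hold the membrane at rest, and calcium channels couple electrical activity to transmitter release and gene expression. In developing motor neurons, low-voltage-activated calcium channels, inward rectifiers and calcium-activated potassium channels shape spontaneous activity and firing rate.

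Totals over gene parts ran from 24020832 to 53903936 counts a library. Isl1 and Lhx3 followed the labels in all 4 libraries: Lhx3 stood at 0.404 and 0.286 CPM (counts per 1000000, scaled by TMM) in the controls and at 125 and 108 CPM with Dox. Although the line is named as stem cells, the 4 pluripotency markers summed to only 70.4 to 94.0 CPM, with Pou5f1 and Nanog below 1 CPM in all libraries. Counts of Isl1 and Lhx3 may include reads of the induced fusion, which was not tested. Besides these 2, the other 4 motor neuron markers (Mnx1, Chat, Slc18a3 and Slc5a7) rose with Dox. Markers of endoderm summed to 33150 to 37064 CPM over 9 genes, none called by edgeR and 0 at an unadjusted p under 0.05. Most of this sum was Col4a1 (22244 to 24710 CPM) and Lama1 (9688 to 11075 CPM). Gata4, Gata6, Sox17, Sox7 and Foxa2 lay between 47.8 and 644 CPM, whereas Afp (0.571 to 2.16 CPM) and Ttr (2.86 to 7.43 CPM) were low. With most of these genes at such levels in both groups, these are not pure motor neuron samples. In such bulk samples fewer cells of a type and less RNA per cell cannot be told apart. The labels do not say that replicates came from separate cultures beyond calling them biological duplicates, so p-values measure the spread between these libraries.

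As a class, channel genes were expressed at low levels. Their mean level per kb of exon had a median of 0.791 CPM per kb over the 85 members tested, against 9.27 CPM per kb over all 14283 genes tested. Only 18 of the 119 reached a mean of 10 CPM, and 55 lay under 1 CPM. Together they held 0.058% and 0.060% of all counts without Dox and 0.074% and 0.072% with Dox. The highest level per kb belonged to Cacnb3, a calcium channel beta subunit (mean 25.6 CPM per kb), followed by the ERG potassium channel Kcnh2 (10.4), the two-pore channels Kcnk1 (9.98) and Kcnk6 (9.40), and the silent Kv subunit Kcng1 (7.66). Levels of Cacnb3 did not overlap with those of Kcnh2 in any library, whereas Kcnh2, Kcnk1 and Kcnk6 overlapped (8.26 to 12.6, 9.19 to 10.7 and 8.46 to 10.2 CPM per kb).

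**Figure D1:**
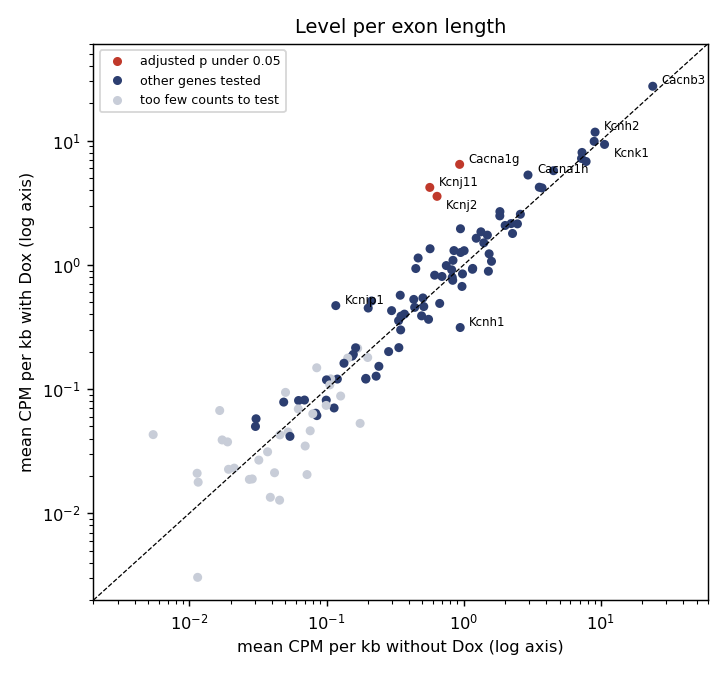
Mean level of each channel gene in CPM per kb of exon, without Dox (x axis) and with Dox (y axis), both on log axes, with the line of equality dashed. Each point is 1 gene over 2 libraries a group, and Kcnk16, at 0 counts with Dox, is not drawn. Cacna1g, Kcnj11 and Kcnj2 stand above the line, from below 1 CPM per kb without Dox, while most genes lie along it and Cacnb3 is highest.

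With Dox 3 channel genes rose and none fell at an adjusted p under 0.05 by the quasi-likelihood test of edgeR. These were the T-type calcium channel Cacna1g and the inward rectifiers Kcnj11 and Kcnj2. These are 3.53% of the 85 members with enough counts to be tested. Over all 14283 genes tested 1.23% were called higher and 0.056% lower. Before adjustment, 13 members (15.3%) had a p under 0.05 and a higher level with Dox and 3 (3.53%) a lower one, against 6.26% and 4.02% of all genes. Both Dox libraries lay above both controls in 24 members (28.2%) and below both in 10 (11.8%), against 18.9% and 19.9% of all genes, and the groups overlapped in 51. The test leaves out the 34 members with the fewest counts, so these shares describe the better expressed members. DESeq2 called more genes in all. Of the 114 members it gave an adjusted p, 6 were higher (5.26%, the 3 above with Cacna1h, Scn2b and Kcnn3) and 1 lower (0.877%, Kcnh1), against 2.61% and 0.741% of all 15251 genes with one. In limma-voom the same 3 were higher and 0 lower, against 1.2% and 0.091% of all genes. The log2 change is that of the level with Dox against the controls. Its median over the 85 members was 0.15 and over all genes -0.01. Without Dox replicate 1 the median of the members was -0.04.

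**Figure D2:**
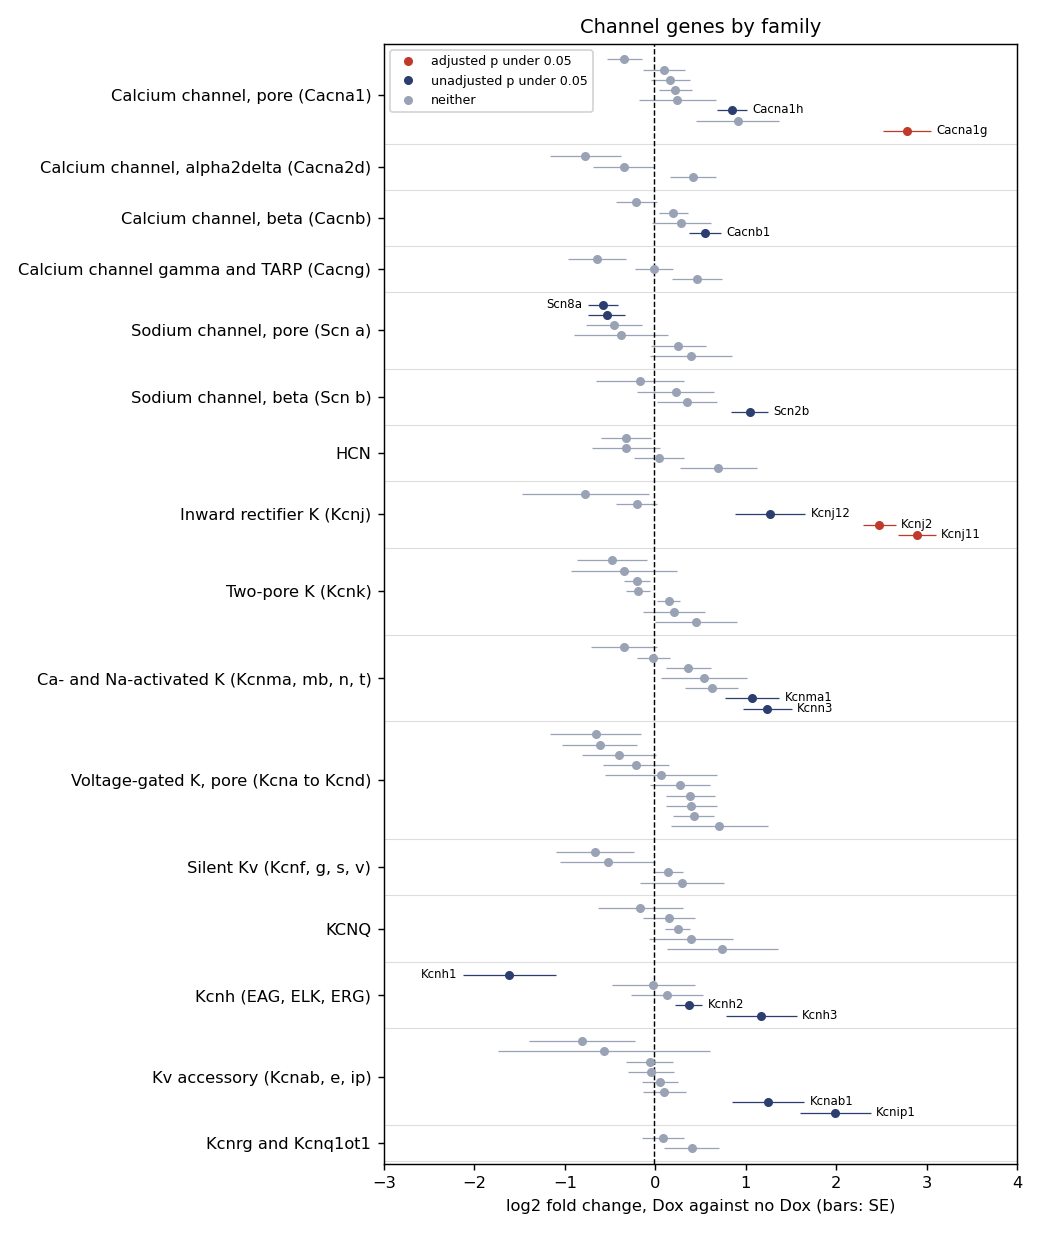
Log2 fold change of the 85 channel genes tested, Dox against no Dox, grouped by family (rows), with bars for the SE from 2 libraries a group and a dashed line at the median of all genes tested. The 3 genes called at an adjusted p under 0.05 stand at 2.48 to 2.89, all other genes lie between -1.61 and 1.99, and most families spread on both sides of 0.

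The pore-forming subunits of calcium channels divide into high-voltage-activated genes, which need a strong depolarisation, and the T-type genes Cacna1g, Cacna1h and Cacna1i, which open near the resting potential. Cacna1g stood at 9.32 and 6.04 CPM in the controls and at 60.9 and 45.0 CPM with Dox. Both libraries with Dox lay far above both others, a 6.87-fold rise (log2 change 2.78, SE 0.26, edgeR adjusted p = 0.00888). Cacna1h stood at 27.3 and 21.0 CPM in the controls and at 44.4 and 42.6 CPM with Dox. Its groups did not overlap either, but the difference missed the threshold in the main test (log2 change 0.84, SE 0.16, adjusted p = 0.095). It passed in DESeq2 (adjusted p = 0.00222), and in edgeR with no filter (0.0307), leaving out no Dox replicate 1 (0.00831) or Dox replicate 2 (0.0498). Over all 12 alternatives the adjusted p ran from 1.44e-05 (replicate block) to 0.122. Cacna1i had 15 counts without and 17 with Dox, too few to test. Summed over the 3 T-type genes the level was 37.1 and 27.2 CPM in the controls and 105 and 87.8 CPM with Dox.

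Of the high-voltage-activated genes, 6 were tested and none passed, also at an unadjusted p under 0.05 or in DESeq2 and limma-voom. Their summed level was 51.9 and 62.4 CPM in the controls and 59.3 and 65.1 CPM with Dox. Cacna1d, an L-type pore, had the highest level per kb of them and stood at 27.1 and 38.1 CPM in the controls and 31.6 and 41.3 CPM with Dox. Cacna1a, the P/Q-type pore of presynaptic terminals, stood at 11.7 and 11.9 CPM and at 15.3 and 12.2 CPM (log2 change 0.22, SE 0.18). Cacna1b, the N-type pore, overlapped between the groups (4.65 to 5.21 CPM and 4.65 to 5.94 CPM). Cacna1c, the other abundant L-type pore, stood at 6.68 and 6.69 CPM in the controls and 5.24 and 5.29 CPM with Dox (log2 change -0.34, SE 0.19, adjusted p = 0.661).

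The rise of Cacna1g was seen in nearly all of its parts. The tables split it into 38 parts, and in 36 of them both libraries with Dox lay above both others. The exceptions were parts 24 and 31, each with 3 counts or fewer in every library without Dox and 6 or fewer with it. Among the 18 parts with at least 10 counts in the libraries without Dox together, the ratio of mean CPM ran from 3.40 (part 36) to 12.8 (part 4), with a median of 6.41. Part 1, the most abundant, went from 1.54 and 1.47 CPM to 10.03 and 9.28 CPM. The tables do not say whether parts are numbered along the transcript or along the chromosome.

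**Figure D3:**
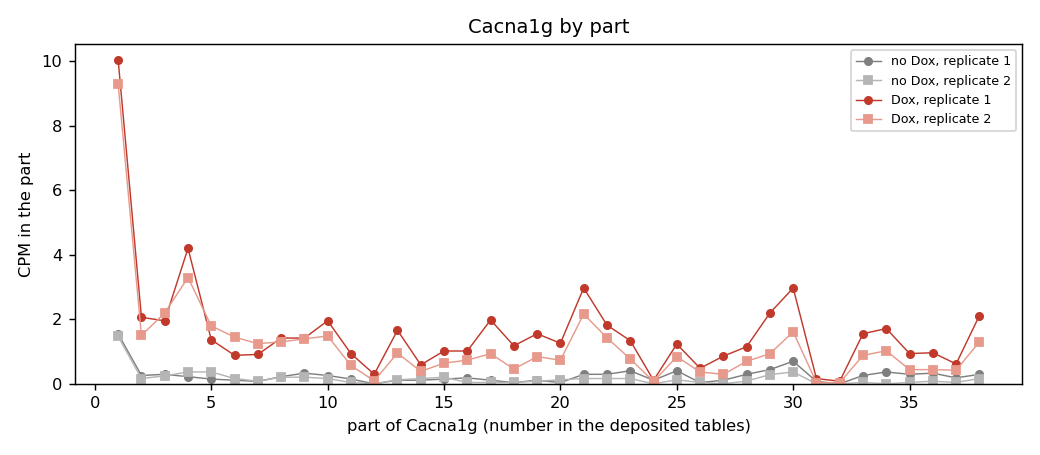
Level of each of the 38 parts of Cacna1g (x axis, part number) in CPM (y axis), with 1 line a library. The 2 libraries with Dox run above the 2 without Dox in 36 parts, and part 1 reaches 10.03 and 9.28 CPM with Dox.

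Accessory calcium channel subunits, which control trafficking and gating of the pore, had no call in the edgeR, DESeq2 or limma-voom tests. Of 10 tested, 1 passed an unadjusted p under 0.05: Cacnb1, a beta subunit known from skeletal muscle and also made in brain, at 7.34 and 7.47 CPM in the controls and 10.4 and 11.3 CPM with Dox (log2 change 0.55, SE 0.17, adjusted p = 0.32). Cacnb3 stood at 55.2 and 70.0 CPM in the controls and 66.5 and 77.3 CPM with Dox, and the groups overlapped. Among the alpha2delta genes, Cacna2d3 stood at 7.63 and 3.55 CPM against 3.69 and 2.87 CPM (log2 change -0.78, SE 0.39, adjusted p = 0.607) and Cacna2d2 at 15.6 and 10.8 CPM against 13.5 and 7.32 CPM. In both, replicate 1 was higher than replicate 2 within each group, and the groups overlapped. When control replicate 1 was left out, the log2 change of Cacna2d3 was -0.11 (adjusted p = 0.944), and when control replicate 2 was left out, -1.22 (0.073). Of the gamma and TARP genes, whose TARP members carry AMPA receptors to synapses, Cacng7 had the highest level per kb (18.5 and 13.5 CPM, then 17.4 and 14.4 CPM), and Cacng5 stood at 1.36 and 1.22 CPM in the controls and 0.829 and 0.824 CPM with Dox (adjusted p = 0.599).

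Inward rectifiers help to hold the membrane near the resting potential. Of 11 kept, 5 had enough counts to test, and 2 of these rose. Kcnj2 (Kir2.1), a constitutively open inward rectifier, stood at 3.45 and 3.51 CPM in the controls and at 20.5 and 18.2 CPM with Dox. The 2 libraries of each group lay close together, and the rise was 5.57-fold (log2 change 2.48, SE 0.18, edgeR adjusted p = 0.00351). Kcnj11 (Kir6.2), the pore of the ATP-sensitive potassium channel, stood at 1.84 and 1.88 CPM in the controls and at 14.8 and 12.7 CPM with Dox, a 7.41-fold rise (2.89, SE 0.21, adjusted p = 0.00351). Nearly all counts of Kcnj2 fell in part 2 of its 2 parts (ratio of mean CPM 5.47), and the larger 2 of the 3 parts of Kcnj11 had ratios of 7.36 and 8.26. Kcnj12 (Kir2.2), which can join Kir2.1 in 1 channel, stood at 1.43 and 0.857 CPM and at 3.37 and 2.22 CPM. Its groups did not overlap, but it did not pass (log2 change 1.27, SE 0.39, adjusted p = 0.29). Kcnj4 (Kir2.3) overlapped between the groups, at 5.87 and 4.73 CPM in the controls and 4.74 and 4.47 CPM with Dox, as did Kcnj10 (0.697 and 0.531 CPM, then 0.615 and 0.147 CPM). Summed over the family, the level was 14.1 and 12.6 CPM in the controls and 45.2 and 39.1 CPM with Dox.

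Kir6.2 forms a channel only together with a sulfonylurea receptor. Abcc8, which encodes the receptor SUR1 and was looked up after the values of Kcnj11 were seen, stood at 1.21 and 1.88 CPM in the controls and at 25.3 and 31.2 CPM with Dox (log2 change 4.20, SE 0.26, edgeR adjusted p = 0.00235). With its largest part as the gene's count, its log2 change was 3.16 (adjusted p = 0.025). Abcc9, which encodes the other receptor SUR2, had 0 counts without Dox and 1 and 3 counts with Dox. Among genes with a unit in these tables, Abcc8 is the nearest to Kcnj11 on its side in the RefSeq gene table of GRCm38.p6. The next gene beyond it, Ush1c, had 0 and 2 counts without Dox and 32 and 35 with Dox (adjusted p = 0.106), while the neighbour on the other side of Kcnj11, Nomo1, overlapped between the groups (207 to 255 CPM and 226 to 258 CPM). Beyond Nomo1, Abcc6 stood at 0.184 and 0.571 CPM in the controls and 0.642 and 1.28 CPM with Dox, without overlap, and did not pass (log2 change 1.39, SE 0.63, adjusted p = 0.55). Around Kcnj2, the inward rectifier Kcnj16 had 0 counts in all 4 libraries, BC006965 had 0 without and 1 and 6 with Dox, Map2k6 overlapped between the groups, and Sox9 rose to 46.8 and 54.8 CPM with Dox from 26.5 and 21.7 CPM in the controls (log2 change 1.07, SE 0.16, adjusted p = 0.0449). Next to Cacna1g, Abcc3 and Ankrd40 overlapped between the groups, and Spata20 had 2 counts in 1 library and 0 in the others. Epn3 stood at 0.808 and 0.694 CPM in the controls and 0.829 and 1.08 CPM with Dox (adjusted p = 0.856).

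**Figure D4:**
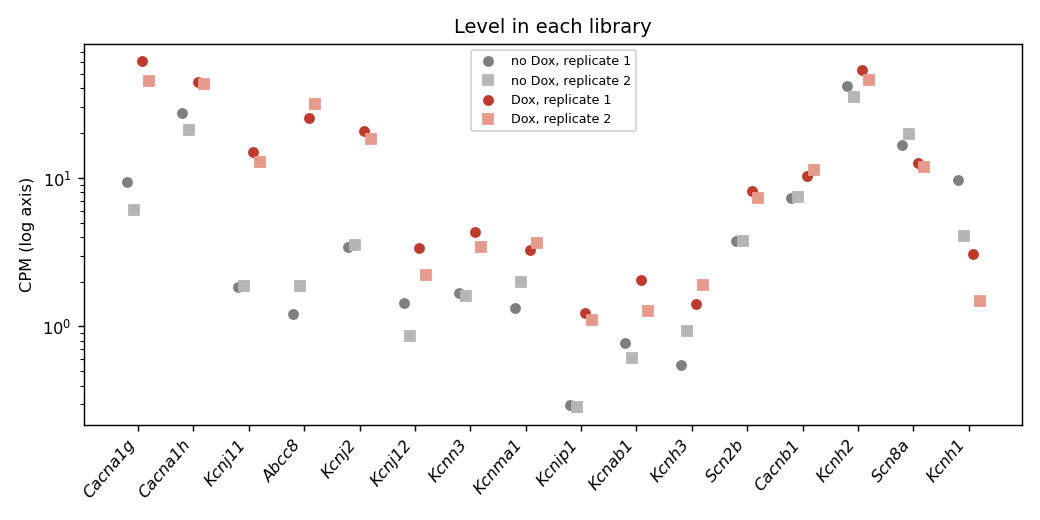
Level in each of the 4 libraries, in CPM on a log axis, of most of the 16 channel genes with an unadjusted p under 0.05 and of Abcc8, the partner of Kcnj11. Circles are replicate 1 and squares replicate 2, grey without Dox and red with Dox. Cacna1g, Kcnj11, Abcc8 and Kcnj2 show the widest gaps between the groups, and Kcnh1 the widest gap in the other direction, with libraries of 1 group spread apart.

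Promoter windows of 250 bases before the annotated start were read from RefSeq (GRCm38.p6). The submitters' processing notes name mm9, and the counts carry no positions. Of the 119 members, 85 had 118 windows in that table. Shown are Kcnj2, which edgeR called higher, and Kcnn3 and Scn2b, to compare it with others on its side. Kcnn3 and Scn2b were higher at an unadjusted p only in edgeR, but DESeq2 called both higher. These 3 were picked after their values were seen. Capitals mark matches, on either strand, of 5 motifs. TAATTA is a homeodomain core. CANNTG is the E-box, the site of basic helix-loop-helix factors. GGGCGG is the GC box of Sp factors. TTCAGCACC is the left part of the RE1 element, the site of Rest. TATAAA is the TATA box. A base may belong to more than 1 match.
Kcnj2, chr11:111065914-111066163, plus strand: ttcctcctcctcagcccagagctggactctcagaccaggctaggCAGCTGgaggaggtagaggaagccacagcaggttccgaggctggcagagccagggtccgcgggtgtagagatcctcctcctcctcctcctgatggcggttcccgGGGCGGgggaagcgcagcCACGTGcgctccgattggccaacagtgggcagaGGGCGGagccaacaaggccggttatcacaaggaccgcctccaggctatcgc
Kcnn3, chr3:89519914-89520163, plus strand: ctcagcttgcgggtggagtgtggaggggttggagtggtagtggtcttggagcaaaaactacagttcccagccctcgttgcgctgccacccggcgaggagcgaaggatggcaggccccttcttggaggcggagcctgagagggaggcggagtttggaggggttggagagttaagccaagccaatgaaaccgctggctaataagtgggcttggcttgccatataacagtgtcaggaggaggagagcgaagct
Scn2b, chr9:45117626-45117875, plus strand: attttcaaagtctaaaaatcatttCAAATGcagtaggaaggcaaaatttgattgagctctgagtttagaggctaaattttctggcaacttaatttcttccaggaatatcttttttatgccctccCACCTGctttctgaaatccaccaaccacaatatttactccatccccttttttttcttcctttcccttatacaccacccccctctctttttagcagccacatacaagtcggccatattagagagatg

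The Kcnj2 window held 2 E-boxes and 2 GC boxes in a GC content of 65.6%, the Scn2b window 2 E-boxes at 38.4% GC, and the Kcnn3 window none of the 5 motifs at 58.8% GC. Over all windows of the members, the median GC content was 59.0%, against 52.4% over 32851 windows of all genes. TAATTA was in 0 of the 118 member windows and in 4.84% of all windows, TATAAA in 3.39% and 12.4%, GGGCGG in 46.6% and 32.7%, CANNTG in 65.3% and 66.2%, and TTCAGCACC in 1 member window (Kcnh6) and 0.301% of all. Windows of 1 gene can share bases, and a match is a description of letters only.

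Potassium channels opened by calcium or sodium shape the pause after a spike. None of 7 tested was called by edgeR or limma-voom, and 2 were higher at an unadjusted p under 0.05. Kcnn3 (SK3), a small-conductance channel of the afterhyperpolarisation, stood at 1.69 and 1.59 CPM in the controls and 4.33 and 3.44 CPM with Dox (log2 change 1.24, SE 0.27, edgeR adjusted p = 0.128, DESeq2 adjusted p = 0.0442). Over its alternatives the adjusted p ran from 0.00121 to 0.348. Kcnma1 (BK), the large-conductance channel, stood at 1.32 and 2.00 CPM and at 3.29 and 3.64 CPM (1.07, SE 0.30, adjusted p = 0.246). Its beta subunit Kcnmb4 stood at 1.14 and 1.18 CPM and at 1.66 and 1.90 CPM (adjusted p = 0.572). In all 3 the groups did not overlap. Kcnn1 (SK1), the most abundant of the family per kb, overlapped between the groups at 10.4 and 10.5 CPM in the controls and 11.2 and 9.46 CPM with Dox. The sodium-activated Kcnt1 overlapped as well (1.10 and 2.53 CPM, then 1.90 and 3.31 CPM).

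The pore subunits of the Shaker, Shab, Shaw and Shal families (Kcna, Kcnb, Kcnc, Kcnd) form delayed rectifiers and A-type channels. None of the 10 tested passed even an unadjusted p under 0.05 in edgeR, and neither DESeq2 nor limma-voom called any. Kcnd1 (Kv4.1) had the smallest p, at 3.23 and 3.27 CPM in the controls and 4.63 and 4.10 CPM with Dox (log2 change 0.42, SE 0.23, adjusted p = 0.636). Fast channels of mature neurons were rare: Kcna1 stood at 0.348 to 1.03 CPM, and Kcnc2 had 7 counts without and 11 with Dox.

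Silent Kv subunits, which form no channel alone and modify Kv2 channels, gave no call in 4 tested by edgeR, DESeq2 or limma-voom. Kcng1 stood at 18.6 and 15.1 CPM in the controls and 17.7 and 19.5 CPM with Dox, and Kcng2 at 0.477 and 0.612 CPM against 0.375 and 0.311 CPM (adjusted p = 0.717). Of 8 accessory Kv genes tested, 2 were higher at an unadjusted p under 0.05. Kcnip1, a calcium-binding partner of Kv4 channels, stood at 0.294 and 0.286 CPM in the controls and 1.23 and 1.10 CPM with Dox (log2 change 1.99, SE 0.39, adjusted p = 0.0956). These levels are 8 and 7 counts without and 46 and 60 with Dox. Kcnab1, a beta subunit of Shaker channels, stood at 0.771 and 0.612 CPM and at 2.06 and 1.26 CPM (adjusted p = 0.325). Kcnab2, the most abundant accessory gene per kb, overlapped at 9.76 and 7.63 CPM and 10.03 and 6.83 CPM.

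The KCNQ channels carry the M-current, which opposes repeated firing. None of 5 tested passed an unadjusted p under 0.05 in edgeR or was called by DESeq2 or limma-voom. Kcnq5 held most of the family's counts, at 26.1 and 23.6 CPM in the controls and 28.1 and 30.8 CPM with Dox (log2 change 0.25, SE 0.14, adjusted p = 0.661), whereas Kcnq3, a subunit of the M-channel of adult neurons, stood at 0.147 to 0.615 CPM. Within the Kcnh family 3 of 5 tested had an unadjusted p under 0.05, 2 of them higher and 1 lower, and edgeR and limma-voom called none. Kcnh1 (EAG1), found in progenitors and neurons, stood at 9.62 and 4.04 CPM in the controls and at 3.05 and 1.48 CPM with Dox (log2 change -1.61, SE 0.52, edgeR adjusted p = 0.325, DESeq2 adjusted p = 0.0296). The groups did not overlap, but replicate 1 exceeded replicate 2 in each of them. The size of this difference moved with single libraries. Leaving out control replicate 1 gave a log2 change of -0.84 (adjusted p = 0.554) and control replicate 2 gave -2.11 (0.0467). Leaving out Dox replicate 1 gave -2.20 (0.0139), whereas Dox replicate 2 gave -1.14 (0.471). Over the alternatives run the adjusted p ranged from 2.10e-05 (replicate block) to 0.554. Kcnh2 (ERG1) stood at 41.7 and 34.9 CPM and at 53.3 and 45.5 CPM (0.37, SE 0.15, adjusted p = 0.485), and Kcnh3 (ELK2) at 0.551 and 0.939 CPM and at 1.42 and 1.90 CPM (1.17, SE 0.39, adjusted p = 0.351).

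Two-pore channels give the background leak of potassium, and their summed level was 90.4 and 97.0 CPM in the controls against 88.0 and 95.9 CPM with Dox. None of 7 tested passed an unadjusted p under 0.05 in edgeR or was called by DESeq2 or limma-voom. Kcnk1 (TWIK1) stood at 23.5 and 24.0 CPM in the controls and 20.5 and 21.1 CPM with Dox (log2 change -0.19, SE 0.13, adjusted p = 0.755), and Kcnk5 (TASK2) at 26.6 and 26.3 CPM and at 21.3 and 24.8 CPM. The motor neuron leak channels TASK1 (Kcnk3) and TASK3 (Kcnk9) were rare. Kcnk3 stood at 0.220 to 0.514 CPM, and Kcnk9 had 18 counts without and 21 with Dox.

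HCN channels, opened by hyperpolarisation, also showed no call among 4 tested in edgeR, DESeq2 and limma-voom, and 0 at an unadjusted p under 0.05. Hcn2 stood at 5.87 and 3.92 CPM in the controls and 4.31 and 3.53 CPM with Dox. Kcnrg, a soluble regulator of Kv assembly, and the long noncoding RNA Kcnq1ot1 matched the symbol rule without being channels. Neither passed (adjusted p = 0.791 and 0.972). Kcnq1ot1 is transcribed antisense to Kcnq1, and the use of strand in counting is not stated in the labels, so reads of this pair may not be fully separated.

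Sodium channel pore genes had a lower summed level with Dox, 34.7 and 34.6 CPM in the controls and 26.6 and 23.4 CPM with Dox, but edgeR, DESeq2 and limma-voom called none of the 6 tested. Before adjustment 2 had a p under 0.05, both lower, among them Scn8a. This gene (Nav1.6), the main sodium channel of mature axon initial segments, stood at 16.6 and 19.7 CPM in the controls and 12.5 and 11.8 CPM with Dox. Its groups did not overlap (log2 change -0.58, SE 0.16, adjusted p = 0.251). Scn3a, an embryonic neuronal channel, overlapped at 6.94 and 4.49 CPM and 4.92 and 3.44 CPM, and Scn1a and Scn2a were low (0.404 to 0.805 CPM and 1.28 to 1.79 CPM). Among the beta subunits, Scn2b stood at 3.74 and 3.75 CPM in the controls and 8.13 and 7.32 CPM with Dox. The difference was far larger than the gap within either group, yet edgeR's adjusted p over all genes was 0.095 (log2 change 1.04, SE 0.20) and that of DESeq2 0.0103, within a range of 0.00046 to 0.255 over its alternatives.

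**Figure D5:**
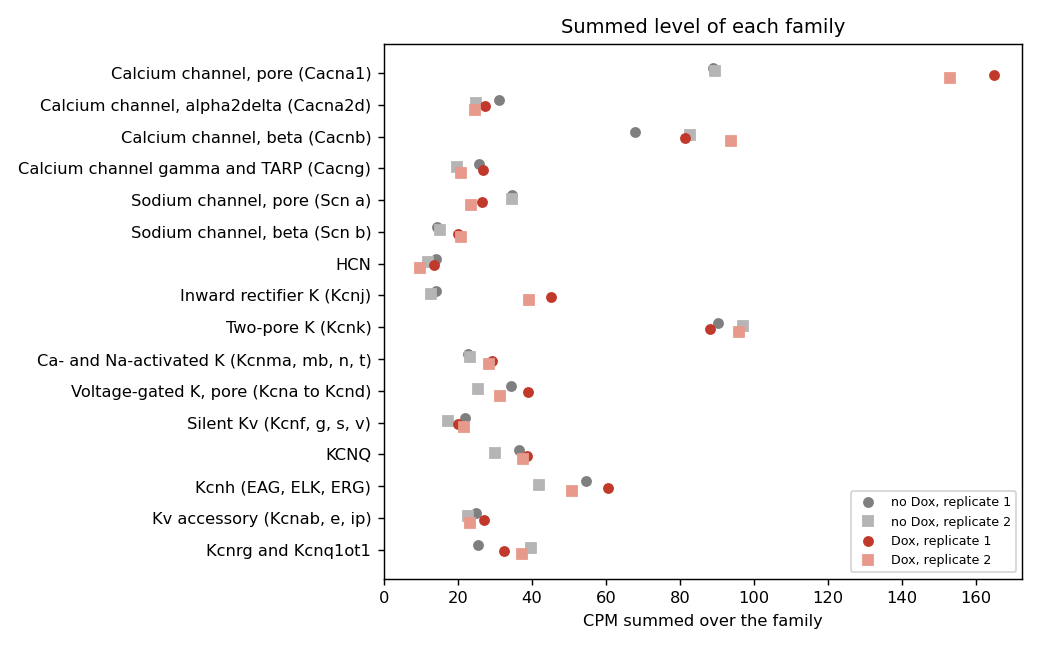
CPM summed over all kept members of each family (x axis, from 0), with 1 point a library. Sums of calcium channel pores (89.0 and 89.6 against 165 and 153 CPM) and inward rectifiers (14.1 and 12.6 against 45.2 and 39.1 CPM) stand furthest apart between the groups. Those of sodium channel beta subunits (14.4 and 15.2 against 20.1 and 20.8 CPM) and calcium- and sodium-activated potassium channels (22.7 and 23.3 against 29.2 and 28.4 CPM) are also higher with Dox without overlap. Those of sodium channel pores are lower (34.7 and 34.6 against 26.6 and 23.4 CPM). Sums of two-pore, KCNQ, HCN and silent Kv genes overlap or lie close together.

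The summed level of all 119 genes was 601 and 589 CPM in the controls and 741 and 711 CPM with Dox, and the 3 called genes made up 2.43% and 1.94% of it without and 13.0% and 10.7% with Dox. Without them the sums were 586 and 577 CPM against 644 and 636 CPM. With 2 libraries a group, no exact permutation test of such sums can pass 0.05, so none is given.

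Of the 34 members with too few counts to test, counts summed over each group gave a ratio whose 95% exact interval lay above 1 in 2 and below 1 in 5, and held 1 in 27. These intervals cover counting error only, and counts of the libraries of a group differed beyond it. The share over all genes left out of the test was not computed. These numbers are therefore not a result about channel genes as a class. Kcnk16, a two-pore channel best known from pancreas, had 8 and 5 counts without and 0 and 0 with Dox, which puts the upper limit of its ratio at 0.185. Kcng3 had 1 and 0 counts without and 6 and 7 with Dox (ratio 7.31, 1.10 to 311). Kcnu1, Cacna1f, Kcnj9 and Kcne1l were the other 4 below 1. Kcnj8, the pore of the vascular ATP-sensitive channel, had 39 counts with Dox, but 34 of them were in 1 library (ratio 1.99, 1.002 to 4.32). Scn4a, the skeletal muscle sodium channel, had 6 counts without and 23 with Dox (ratio 2.16, 0.853 to 6.47).

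Partners that anchor or modify channels were read from a list of 50 genes with a gene unit, of which 45 were tested. Of these, 2 rose (4.44%) and 0 fell in edgeR, against 1.23% and 0.056% of all genes tested. Before adjustment 10 (22.2%) had a p under 0.05 with a higher level and 0 with a lower one, against 6.26% and 4.02%. Cntn1, an adhesion protein that associates with sodium channel beta subunits, rose to 41.7 and 33.3 CPM with Dox from 3.60 and 2.49 CPM in the controls (log2 change 3.62, SE 0.24, edgeR adjusted p = 0.00289). Atp1b2, a beta subunit of the sodium pump, rose to 20.3 and 22.5 CPM with Dox from 4.37 and 4.33 CPM in the controls (2.30, SE 0.17, adjusted p = 0.00351). The list had a median log2 change of 0.17, against -0.01 over all genes tested. Rest, a repressor of neuronal channel genes, was among the 35 partners with an unadjusted p of 0.05 or more, at 54.2 and 31.2 CPM in the controls and 56.2 and 42.8 CPM with Dox.

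Other cell markers moved beside these changes, and their part in them was not tested. The 10 neuron markers summed to 611 to 806 CPM in the controls and to 1204 to 1465 CPM with Dox. Most of this difference lay in the neurofilament genes. Nefl stood at 277 and 166 CPM in the controls and 900 and 659 CPM with Dox, and Nefm was the only one called, while the other 8 had log2 changes below 0. All 7 progenitor markers were below 0 (sum 1158 to 1361 CPM in the controls and 883 to 1122 CPM with Dox), none of them called by edgeR and 5 at an unadjusted p under 0.05. Of 6 mesenchyme markers 3 rose (Col1a1, Col3a1 and Prrx1), with a sum of 479 to 510 CPM in the controls and 542 to 568 CPM with Dox. Muscle markers summed to 36.7 to 39.2 CPM in the controls and 39.7 to 48.4 CPM with Dox, with Myod1 below 0.1 CPM in all libraries and Myog at 0 counts without Dox and 0.722 and 1.15 CPM with Dox. Sums of smooth muscle (20.3 to 33.0 CPM without, 21.7 to 25.1 CPM with Dox) and endothelial (26.6 to 44.9 CPM, then 31.3 to 52.2 CPM) markers overlapped between the groups. Those of pluripotency markers were 74.8 to 94.0 CPM and 70.4 to 73.8 CPM, with 0 of 4 called and 0 at an unadjusted p under 0.05. Glial markers summed to 24.7 to 26.6 CPM and 30.1 to 32.1 CPM, with Aqp4 the only one called.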

How the data were processed

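RNA was measured in 4 libraries made with the Illumina TruSeq protocol, per the labels' protocols, 2 with and 2 without Dox, grouped by sample title. TopHat and mm9 are named in the submitters' processing notes. The counter, its annotation and its strand setting are not given in the sources used. Each deposited table holds whole counts for 208825 parts of RefSeq gene units, with 4 rows a file that name no gene, left out (reads outside genes were 13.6% to 15.8% of all counts, ambiguous reads 0.411% to 0.521%). A read spanning several parts may be counted in each.

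Parts were summed to 21822 units. Symbols came from RefSeq (GRCm38.p6) and GENCODE M21 by transcript identifier (97.1% of 27601 matched), exon lengths from GENCODE M21. Of units with the same symbol, that with most counts was used. Counts of the 2 libraries of a group differed beyond sampling noise (chi-square over its degrees of freedom 36.5 for the controls and 32.6 for Dox). Testing used edgeR 4.0.16 under R 4.3.3 (quasi-likelihood F test, robust, TMM, default low-count filter, Benjamini-Hochberg over 14283 genes). The biological coefficient of variation was 0.148. Alternatives used DESeq2 1.42.0, limma 3.58.1, other scalings and filters, the largest part as the gene's count, the replicate number as a block, and each library left out. On simulated counts for this comparison (14164 genes run) the test found 67% of 100 genes made to differ 2-fold. It found 99% of 100 made to differ 4-fold, and made 9 false calls. The genes made to differ averaged at least 1 CPM, so these shares do not cover the 55 members under 1 CPM. Simulated libraries were independent of each other.

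Named are the channel genes called, per family the one with the smallest p and the one with the highest level per kb, called partners, and Isl1 and Lhx3. Some genes that this rule selects are not reported here, though they remain in the counts, sums and tests. Others named were chosen after their values were seen. The families, lists and rule were chosen with earlier results of these data known.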

Additional observations from a re-analysis of the deposited data

How the results depend on the processing

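Cacna1g, Kcnj11 and Kcnj2 were called higher under all 12 alternatives (log2 fold changes 2.50 to 3.14, 2.77 to 3.02 and 2.39 to 2.58). With the 3 genes of the main test, the number of channel genes called was 7 in DESeq2 (6.14% of those with an adjusted p, against 3.35% of all genes) and 18 with the replicate number as a block (14 higher, 4 lower, 21.2% against 13.4%). It was 4 with any 1 library left out (4.04% to 4.49%, against 2.04% to 2.82%) or with no filter (3.36% against 1.93%). At an unadjusted p under 0.05 it was 16 in the main test, 31 with the replicate block, 9 when only genes averaging 5 CPM or more were kept (31 members) and 14 to 25 with 1 library left out, highest without no Dox replicate 2. The share of all genes at this unadjusted threshold was not computed for the alternatives. Their unadjusted counts therefore have no background and are not a result about channel genes as a class. The labels give no shared batch behind the replicate numbers, and there are only 2 pairs. Deviations of same-numbered libraries from their group means correlated at 0.71 over 10892 genes, and of the 85 members 39 had replicate 1 above replicate 2 in both groups, 20 had replicate 2 above in both and 26 had opposite orders. Where a group keeps 1 library, that library is assumed to vary like the other group. Of the named genes, small log2 changes crossed 0. With library totals and with no filter, Kcnn1 was at 0.00069 and 0.0016 and Cacng7 at 0.016 and 0.012. Cacng7 was also at 0.0047 with the filter at 5 CPM and at 0.0011 with the replicate block. With 1 library left out, Kcnn1 ran from -0.15 to 0.12, Cacna2d2 from -0.85 to 0.048, Cacng7 from -0.22 to 0.25, Hcn2 from -0.59 to 0.0057, Kcnab2 from -0.35 to 0.22 and Kcng1 from -0.0036 to 0.31, and the median of the members from -0.04 to 0.19. None of these 6 genes was called, and the cause was not tested. Among its further calls, the block had Kcnj12, Kcnma1, Kcnip1, Kcnab1, Cacnb1, Kcnh2 and Kcnh3 higher and Scn8a and Cacna2d3 lower. Depth limits the 34 members left out of the test.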
